A study of Arabidopsis thaliana with 16 samples.

Results

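The SnRK1 kinase complex of Arabidopsis thaliana was followed here through the transcripts of its 7 subunit genes, which were taken by locus code from a table of 27416 genes. They comprise the catalytic alpha subunits KIN10 (AT3G01090) and KIN11 (AT3G29160) and the beta subunits AKINB1 (AT5G21170), AKINB2 (AT4G16360) and AKINB3 (AT2G28060). The other two are the gamma-type subunit KING1 (AT3G48530) and the beta-gamma subunit SNF4 (AT1G09020). All 7 passed the filter on low counts.

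The RNA came from whole seedlings grown on agar plates at 22 °C, with no mutant or transgene named. Seedlings in the EtOH_1d group were 13 d old when ethanol vapour was given for 1 d, and those in the EtOH_3d group were 11 d old when it was given for 3 d. The controls, moc_1d and moc_3d, carry the treatment label moc, which is not spelled out, and the same 2 durations. The series title names freezing stress, but no label gives these samples a cold step. Each group has 4 labelled replicates, and whether these were separate plates or pools is not given. Any p-value here is thus set against a spread between samples that could be technical alone. Start age and duration cannot be told apart.

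SnRK1 is the plant relative of animal AMPK and yeast SNF1, protein kinases that are activated when cellular energy is low. The alpha subunit carries the kinase domain and is phosphorylated by upstream kinases, beta subunits form the scaffold and contribute to localization, and gamma-type subunits carry CBS domains. In leaves and seedlings, active SnRK1 is known for inducing genes of nutrient recycling in darkness or sugar starvation and for restraining growth, in part by opposing the TOR kinase. Its activity is controlled to a large extent at the protein level, which RNA counts do not measure.

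The columns titled moc_1d replicate 1 and moc_3d replicate 3 held the same count for every gene and were both left out, because the sources used here do not say which label is right. That left 14 libraries, with 4 in each EtOH group and 3 in each moc group, of 3695511 to 15943927 counts. EtOH_3d replicate 2, the shallowest library, stood apart on the first principal component and moc_3d replicate 1 on the second, and both were kept. The tissue label was checked with 4 shoot and 6 root markers, none of which was at 0 in any group. Levels are given as CPM, counts scaled by TMM to a common library total. Summed shoot markers reached 42300 to 46460 CPM in EtOH_3d and 43790 to 45750 CPM in moc_3d. Summed root markers reached 1144 to 1227 CPM in EtOH_3d and 1242 to 1268 CPM in moc_3d. The root marker PYK10 made up most of that sum, with means of 1115 CPM in EtOH_3d and 1188 CPM in moc_3d. Of the 6 root markers, 4 had positive and 2 negative log2 fold changes at 3 d, with a median of 0.075. The part of root content in the results at 3 d was not tested. In such bulk samples, fewer cells of a type and less RNA per cell cannot be told apart.

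Of the SnRK1 complex, 1 of 7 subunit transcripts passed the test after 3 d of ethanol, where 0.554% of all genes tested did. KING1 rose by 25.3%, a call that held in 13 of 23 alternative settings and was lost on leaving out any 1 of the 3 moc_3d libraries, while the 6 others did not pass. Those of AKINB1 and AKINB3 had positive estimates of similar size, that of KIN11 a smaller positive one, and those of AKINB2, KIN10 and SNF4 negative ones. The 95% interval of AKINB3 was also wide (0.02 to 0.65), and those of KIN11, AKINB2, KIN10 and SNF4 spanned both signs. After 1 d no subunit passed. Levels come from 3' reads and are compared between libraries, not between genes. A call means an adjusted p under 0.05 in edgeR's quasi-likelihood test over 18419 genes.

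**Figure D1:**
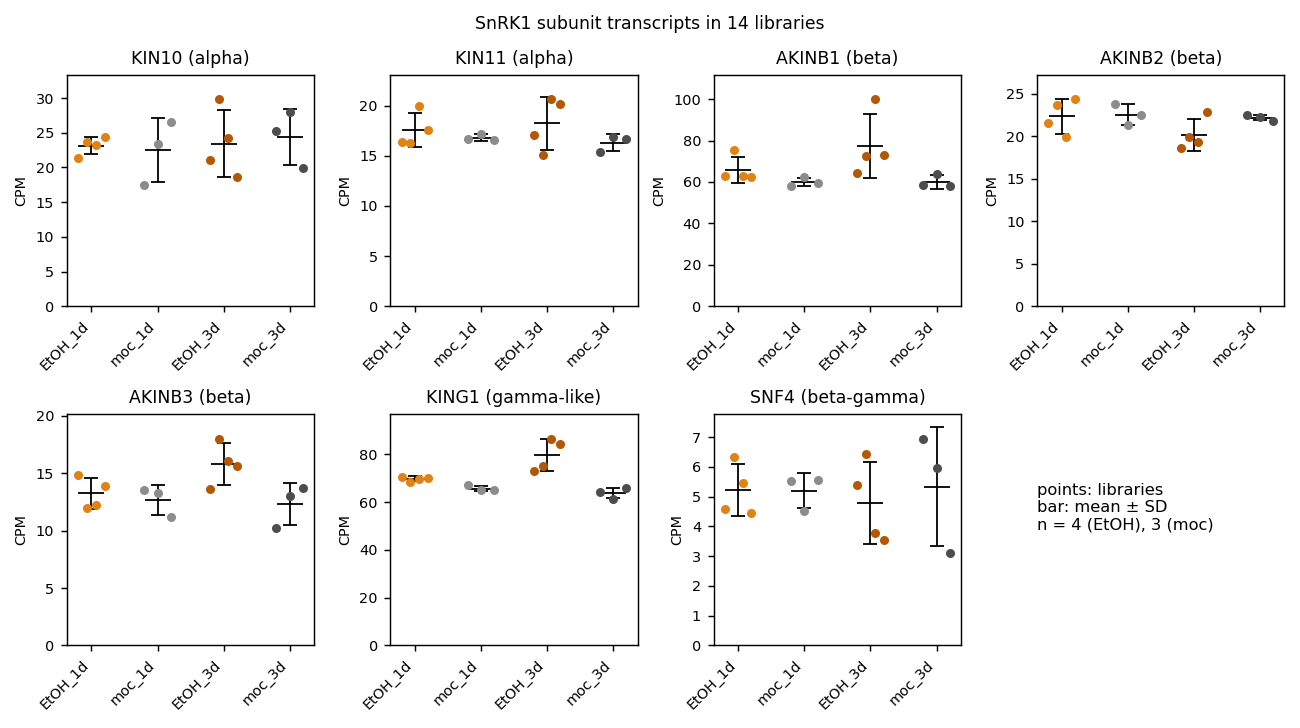
Level of each subunit transcript (CPM, axis from 0) in the 14 libraries, with points for libraries and bars for mean ± SD (n = 4 for EtOH groups, 3 for moc groups). The 4 EtOH_3d libraries of KING1 sit between 72.9 and 86.5 CPM, above all analysed libraries of the other groups, though not above the left-out duplicated library at 76.2 CPM.

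KIN10 and KIN11, the alternative catalytic subunits, kept overlapping levels in all 4 groups. KIN10 had 21.4, 23.7, 23.2 and 24.35 CPM in EtOH_1d, against 17.5, 23.4 and 26.6 CPM in moc_1d. It had 21.0, 29.8, 24.3 and 18.6 CPM in EtOH_3d, against 25.25, 28.0 and 19.9 CPM in moc_3d. The spread within each group thus exceeded the distance between group means. The log2 fold change was 0.06 ± 0.134 at 1 d and -0.07 ± 0.144 at 3 d (SE), with a 95% interval of -0.36 to 0.22 at 3 d and an adjusted p of 0.932.

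KIN11 had 16.4, 16.3, 20.0 and 17.6 CPM in EtOH_1d, against 16.6, 17.2 and 16.6 CPM in moc_1d. It had 17.1, 15.0, 20.6 and 20.2 CPM in EtOH_3d, against 15.4, 16.9 and 16.7 CPM in moc_3d. Here EtOH libraries lay on both sides of the narrow moc ranges. The log2 fold change of KIN11 was 0.06 ± 0.128 at 1 d and 0.17 ± 0.14 at 3 d (SE), with an interval of -0.11 to 0.46 at 3 d and an adjusted p of 0.774. KIN10 made up 55.9% of the joint KIN10 and KIN11 counts in EtOH_3d and 59.6% in moc_3d, and 56.9% in EtOH_1d and 56.8% in moc_1d. Averaged over both durations that share differed by -1.83 percentage points between EtOH and moc (exact permutation test within durations, two-sided, p = 0.535, 0.743 after adjustment over 10 share tests). The annotated 5' end of KIN10 (TAIR10.1), away from the end that the 3' reads cover, overlaps the 3' end of AT3G01100 on the same strand by 13 bp, and the 6 other subunits overlap no counted gene.

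The beta subunits AKINB1, AKINB2 and AKINB3 gave estimates of different sign at 3 d, and none passed the test. AKINB1, which carries a carbohydrate-binding module, had 62.7, 75.4, 62.8 and 62.3 CPM in EtOH_1d, against 58.15, 62.26 and 59.5 CPM in moc_1d. Its levels were 64.2, 72.5, 99.9 and 72.8 CPM in EtOH_3d, against 58.5, 64.07 and 57.95 CPM in moc_3d. All EtOH libraries exceeded all moc libraries of the same duration, a pattern that 3.26% of genes showed at 1 d and 4.16% at 3 d, and the margin to the nearest moc library was small. The log2 fold change of AKINB1 was 0.13 ± 0.1 at 1 d and 0.37 ± 0.104 at 3 d (SE), the 3 d interval was 0.16 to 0.58, and its adjusted p was 0.128. Replicate 3 of EtOH_3d weighed on this value, which was 0.21 without it and 0.45 without replicate 1 of that group, where AKINB1 was called (adjusted p = 0.0144). With no filter on low counts it was also called, with an adjusted p of 0.00667.

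AKINB2, the beta subunit known to be attached to membranes by N-terminal lipid groups, had 21.6, 23.7, 19.9 and 24.35 CPM in EtOH_1d, against 23.8, 21.3 and 22.5 CPM in moc_1d. It had 18.6, 19.9, 19.4 and 22.9 CPM in EtOH_3d, against 22.5, 22.3 and 21.9 CPM in moc_3d. Of the EtOH_3d libraries, 3 lay below the moc_3d range and replicate 4 above it. The log2 fold change of AKINB2 was -0.02 ± 0.115 at 1 d and -0.14 ± 0.126 at 3 d (SE), with an interval of -0.39 to 0.12 at 3 d and an adjusted p of 0.826.

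AKINB3, a short plant-type beta subunit that lacks the carbohydrate-binding module, had 14.8, 11.9, 12.25 and 13.9 CPM in EtOH_1d, against 13.6, 13.3 and 11.15 CPM in moc_1d. Its levels were 13.6, 18.0, 16.1 and 15.6 CPM in EtOH_3d, against 10.2, 13.0 and 13.7 CPM in moc_3d. The lowest EtOH_3d library lay just under the highest moc_3d library, so the groups overlapped at 3 d as at 1 d. The log2 fold change of AKINB3 was 0.07 ± 0.145 at 1 d and 0.34 ± 0.157 at 3 d (SE), with an interval of 0.02 to 0.65 at 3 d, an unadjusted p of 0.0364 and an adjusted p of 0.522.

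The share of each beta subunit in the joint beta counts does not depend on library scaling. The beta shares of a library add up to the whole, so a higher share of 1 subunit leaves less for the others together. AKINB2 made up 19.3%, 18.0%, 14.3% and 20.5% of beta counts in EtOH_3d, against 24.65%, 22.4% and 23.4% in moc_3d. At 3 d the groups did not overlap, and AKINB2 took the smaller share in every EtOH_3d library, although its CPM levels overlapped. The AKINB1 shares did not overlap at 3 d either, with 65.45% to 73.81% in EtOH_3d against 61.96% to 64.48% in moc_3d. How often such shares separate among other genes was not tested. At 1 d its share was 21.8%, 21.3%, 20.9% and 24.2% in EtOH_1d, against 24.9%, 22.0% and 24.1% in moc_1d, where the ranges overlapped. The difference in AKINB2 share between EtOH and moc was -1.63 points at 1 d and -5.44 points at 3 d. Averaged over durations it was -3.53 points (exact permutation test, two-sided, p = 0.00816), which did not pass after adjustment over the 10 share tests (p = 0.0816). The AKINB1 share averaged 67.9 ± 3.98% in EtOH_3d and 63.5 ± 1.37% in moc_3d, and 64.8 ± 2.71% in EtOH_1d and 63.0 ± 1.87% in moc_1d (SD, n = 4 for EtOH and 3 for moc). Its averaged difference of 3.09 points did not pass either (exact permutation test, p = 0.0522, 0.186 adjusted). For AKINB3 the averaged difference in share was 0.45 points (exact permutation test, p = 0.62, 0.743 adjusted). Within 1 duration, 4 against 3 libraries cannot give a two-sided p below 0.0571.

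**Figure D2:**
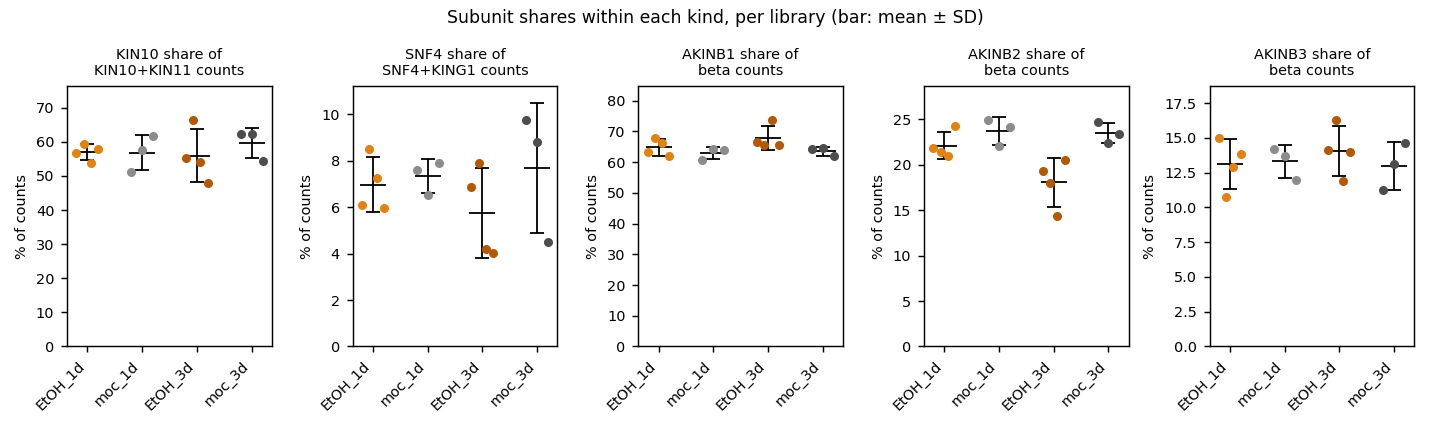
Share of each subunit in the counts of its kind (% of counts, axis from 0) per library, with bars for mean ± SD. The 4 EtOH_3d libraries of AKINB2 lie at 14.3% to 20.5% of beta counts, below the 22.4% to 24.65% of moc_3d. Those of AKINB1 lie at 65.45% to 73.81%, above the 61.96% to 64.48% of moc_3d.

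KING1, a CBS-domain protein of the gamma type whose place in the Arabidopsis complex has been debated, rose after 3 d of ethanol. It had 72.9, 74.9, 86.5 and 84.4 CPM in EtOH_3d, against 64.2, 61.4 and 65.7 CPM in moc_3d. After 1 d it had 70.6, 68.2, 69.7 and 70.2 CPM in EtOH_1d, against 67.0, 64.8 and 65.1 CPM in moc_1d. At both durations every EtOH library exceeded every analysed moc library, a pattern that 3.26% of genes showed at 1 d and 4.16% at 3 d. At 3 d the distance was several times that at 1 d, but the effects were not shown to differ (edgeR test of their difference, adjusted p = 0.879). The group means ran from 79.7 ± 6.75 CPM in EtOH_3d and 69.7 ± 1.04 CPM in EtOH_1d to 65.6 ± 1.17 CPM in moc_1d and 63.8 ± 2.17 CPM in moc_3d (SD, n = 4 for EtOH and 3 for moc). The last 2 of these neighbours overlapped.

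The log2 fold change of KING1 was 0.33 ± 0.079 at 3 d (SE, 95% interval 0.17 to 0.48), with an adjusted p of 0.0288. It ranked 88 by p among all genes tested. This made 1 of 7 subunits called, where 0.554% of all genes were called in that comparison. The median log2 fold change of the 7 subunits, that of KIN11, was 0.175, against 0.00 (-0.00105) over all genes tested. Of the 7 estimates, 4 were positive and 3 negative. At 1 d the log2 fold change of KING1 was 0.09 ± 0.076 (SE, interval -0.07 to 0.24), with an adjusted p of 1.

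The estimate for KING1 at 3 d kept its sign under 23 alternative settings and lay between 0.26 and 0.37, while the call held in 13 of them. The adjusted p was 0.118, 0.183 and 0.0874 without moc_3d replicates 1, 2 and 4 in turn, and 0.18 and 0.0987 without EtOH_3d replicates 3 and 4. It was 0.00984 with DESeq2, 0.0564 with limma-voom, 0.0841 when only the 3 d libraries were fitted, 0.0625 with the replicate number as a block and 0.154 with all 16 columns. In the duplicated library, which bears a moc label in either group, KING1 stood at 76.2 CPM and AKINB3 at 18.8 CPM, both above every moc library analysed, and AKINB1 at 59.8 CPM. Its KING1 level also exceeded those of all EtOH_1d libraries and of EtOH_3d replicates 1 and 2 (72.9 and 74.9 CPM), and its AKINB3 level those of all EtOH libraries, so with that library the moc and EtOH ranges of KING1 would overlap. Kept once as moc_3d replicate 3, that library brought the log2 fold change of KING1 to 0.26 (adjusted p = 0.106), and kept as moc_1d replicate 1 it left the value at 0.33 (adjusted p = 0.049).

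**Figure D3:**
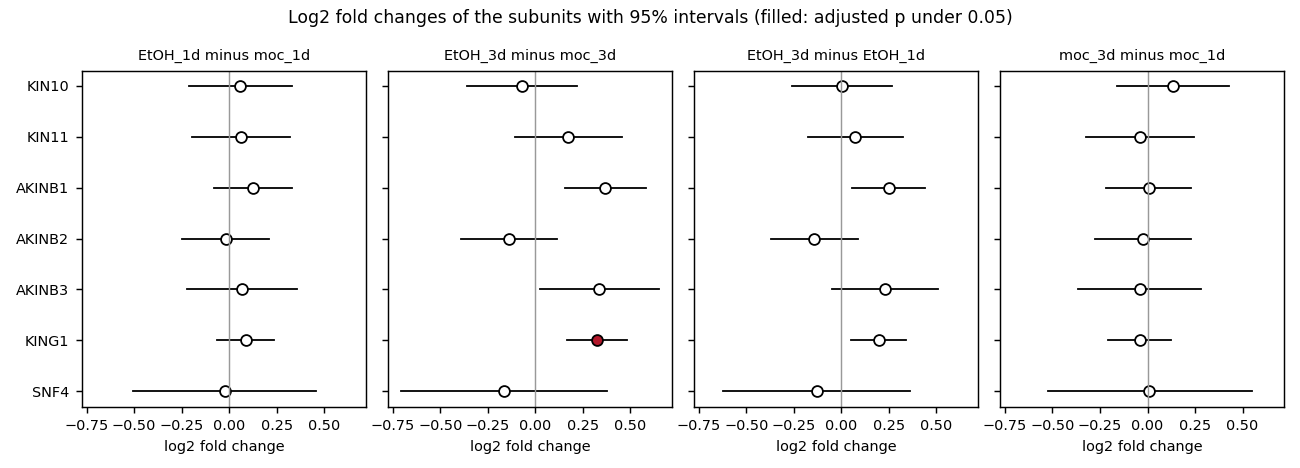
Log2 fold changes of the 7 subunits (horizontal axis) with 95% intervals in 4 comparisons, where a filled point marks an adjusted p under 0.05. KING1 at 3 d of ethanol, at 0.33, is the single filled point.

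SNF4, the beta-gamma protein that serves as the regulatory gamma subunit in plants, was the least precisely measured. It drew 20 to 74 counts per library, and its biological coefficient of variation was 15.8%, against 6.73% for KING1. SNF4 had 5.4, 6.4, 3.8 and 3.5 CPM in EtOH_3d, against 7.0, 6.0 and 3.1 CPM in moc_3d. At 1 d it had 4.6, 6.3, 5.5 and 4.5 CPM in EtOH_1d, against 5.5, 4.5 and 5.6 CPM in moc_1d. The ranges overlapped at both durations. Its log2 fold change was -0.02 ± 0.24 at 1 d and -0.16 ± 0.271 at 3 d (SE, interval -0.71 to 0.38, adjusted p = 0.917). That 3 d interval includes a change of the size seen for KING1. SNF4 made up 5.76% of the joint SNF4 and KING1 counts in EtOH_3d and 7.70% in moc_3d, and 6.96% in EtOH_1d and 7.35% in moc_1d. The averaged difference of -1.16 points did not pass (exact permutation test, p = 0.238, 0.477 adjusted).

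Upstream sequences are shown for KING1, the called subunit, and for AKINB1 and AKINB2. The shares of these 2 in the same beta counts, which are not independent of each other, had estimates of opposite sign. Each is the 250 bases before the annotated start (TAIR10.1, RefSeq, written 5′ to 3′ on the gene's strand), with any match to CACGTG, the G-box core, or to TATCCA, a motif known from sugar-repressed alpha-amylase promoters of rice, in capitals on either strand. KING1 begins on chromosome 3 and its window is chr3:17987128-17987377 (plus strand). The AKINB1 window is chr5:7205227-7205476 (plus strand) and overlaps the annotated RNA gene AT5G00430, and the AKINB2 window is chr4:9244877-9245126 (plus strand).
KING1 promoter: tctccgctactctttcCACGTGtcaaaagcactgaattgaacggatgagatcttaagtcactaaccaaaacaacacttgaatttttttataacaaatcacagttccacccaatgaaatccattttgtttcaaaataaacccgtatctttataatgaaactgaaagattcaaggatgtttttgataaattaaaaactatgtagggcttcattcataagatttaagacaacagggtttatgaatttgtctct
AKINB1 promoter: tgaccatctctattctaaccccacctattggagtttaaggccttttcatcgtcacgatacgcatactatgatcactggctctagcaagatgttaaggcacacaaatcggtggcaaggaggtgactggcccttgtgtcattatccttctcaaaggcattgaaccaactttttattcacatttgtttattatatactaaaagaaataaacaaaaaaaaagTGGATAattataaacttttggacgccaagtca
AKINB2 promoter: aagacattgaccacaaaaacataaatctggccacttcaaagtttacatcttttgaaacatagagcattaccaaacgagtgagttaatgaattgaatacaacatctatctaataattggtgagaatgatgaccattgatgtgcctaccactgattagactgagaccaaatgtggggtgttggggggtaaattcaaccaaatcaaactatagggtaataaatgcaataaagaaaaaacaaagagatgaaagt
KING1 holds 1 CACGTG, AKINB1 holds 1 TATCCA, written there as its reverse complement TGGATA, and AKINB2 holds neither. CACGTG, which includes the shorter ACGT, lay in 6.49% of 27443 windows of the same length before annotated genes and in 1 of the 7 subunit windows. TATCCA lay in 13.6% of windows and also in 1 of 7. ACGT alone lay in 44.1% of windows and in 2 of 7, those of KING1 and KIN10. Such matches describe letters in a window and are not shown to be binding sites.

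At 1 d, 0 of 7 subunits were called and 0 had an unadjusted p under 0.05, by edgeR, limma-voom and DESeq2 alike. Of all genes, 0% were called by edgeR at 1 d, with 795 at an unadjusted p under 0.05. Averaging the ethanol effect over both durations gave KING1 a log2 fold change of 0.21 ± 0.055 (SE, adjusted p = 0.07) and AKINB1 one of 0.25 ± 0.072 (SE, adjusted p = 0.172). Thus 0 of 7 were called by edgeR in the averaged comparison, where 0.516% of genes were. By edgeR, 2 of 7 had an unadjusted p under 0.05 there, beside 1466 of all 18419 genes tested. DESeq2 called KING1 there (adjusted p = 0.0295) and limma-voom called 0 of 7.

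Whether ethanol acted more strongly at 3 d than at 1 d was tested as the difference of both effects. For KING1 that difference was 0.24 ± 0.11 on the log2 scale (SE, unadjusted p = 0.0337, adjusted p = 0.879). For AKINB1 it was 0.24 ± 0.144 and for AKINB3 0.27 ± 0.214. Of the 7 subunits, 0 were called by edgeR, limma-voom or DESeq2, beside 0.0434% of genes called by edgeR. With each tool 1 subunit had an unadjusted p under 0.05, as did 1025 of 18419 genes by edgeR. The larger values at 3 d are therefore not shown to differ from those at 1 d.

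Duration was compared within each treatment. KING1 was higher in every EtOH_3d library than in every EtOH_1d library, which 2.96% of genes were, with a log2 fold change of 0.20 ± 0.072 (SE, adjusted p = 0.241). AKINB1 differed by 0.25 ± 0.094 (adjusted p = 0.298), and AKINB2 by -0.14 ± 0.114 (adjusted p = 0.753). Between EtOH_3d and EtOH_1d, 0 of 7 subunits were called by edgeR, limma-voom or DESeq2, where 1.00% of genes were called by edgeR. With each tool 2 subunits had an unadjusted p under 0.05 there, as did 1880 of 18419 genes by edgeR. Between moc_3d and moc_1d the 7 log2 differences lay from -0.04 to 0.13, and 0 of 7 were called or had an unadjusted p under 0.05 with any of these tools. By edgeR, 0.842% of genes were called in that comparison and 1720 of 18419 had an unadjusted p under 0.05. The AKINB2 share differed by -4.02 points between EtOH_3d and EtOH_1d and by -0.21 points between moc_3d and moc_1d (exact permutation test of the averaged -2.11 points, p = 0.0557, 0.186 adjusted).

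Over the 14 libraries, KING1 levels ran most closely with those of AKINB1 (Pearson r = 0.78 of log2 CPM), AKINB3 (0.69) and KIN11 (0.62). Since libraries of a group share treatment and duration, the same r was computed after removing group means. It was 0.49 for AKINB1, 0.20 for AKINB3 and 0.65 for KIN11. Differences in depth between libraries of a group were not removed. KIN10 and KIN11 had an r of -0.32 (-0.33 without group means), and KING1 and SNF4 one of -0.44 (-0.66 without group means). These are descriptions of 14 libraries without a test.

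**Figure D4:**
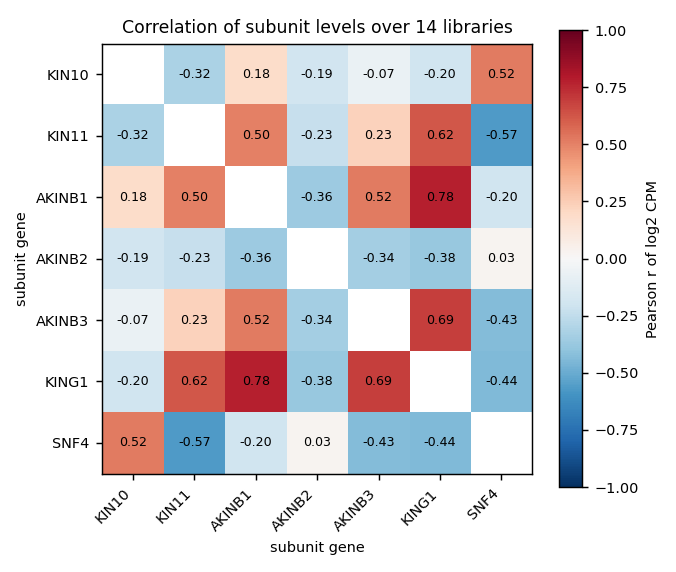
Pearson r of log2 CPM between the subunit genes on both axes over 14 libraries, coloured on a scale from -1 to 1. KING1 and AKINB1 form the highest pair, at 0.78.

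Among 14364 genes with a mean of at least 5 CPM, the profile most like that of KING1 belonged to AT1G49500, annotated as similar to a TFIID subunit (r = 0.93 over 14 libraries). The same gene was the nearest to AKINB1 (r = 0.86). AT1G49500 averaged 494 ± 57.3 CPM in EtOH_3d and 375 ± 9.42 CPM in moc_3d, and 423 ± 10.5 CPM in EtOH_1d and 362 ± 15.7 CPM in moc_1d (SD, n = 4 for EtOH and 3 for moc). Its log2 fold change at 3 d was 0.40 with an adjusted p of 0.00014 in edgeR's test. AT1G49500 was picked as the nearest of 14364 genes over these same libraries, EtOH and moc together. Its fold change and p are therefore not independent of KING1's. The nearest genes of the other subunits were AT1G14580 for KIN10 (r = 0.86), RABG3E for KIN11 (0.90), LYC for AKINB2 (0.88), AT2G01340 for AKINB3 (0.87) and AT5G51190 for SNF4 (0.83).

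Genes around the complex were described by lists. GRIK1 and GRIK2, the kinases that phosphorylate the activation loop of the alpha subunits, had log2 fold changes of -0.23 and 0.02 at 3 d, and 0 of 2 were called by edgeR. Of 17 DUF581 zinc finger genes, whose FLZ proteins bind SnRK1 subunits as adaptors, 15 were tested and 0 were called by edgeR at 3 d. At an unadjusted p under 0.05 there were 2 by edgeR, beside 1624 of all 18419 genes tested. Of the 15 zinc finger genes, 12 had negative and 3 positive values, with a median log2 fold change of -0.17. The smallest p values were those of AT1G78020 (-0.21, adjusted p = 0.386) and AT3G22550 (-0.44, adjusted p = 0.431). Among 7 other regulators 0 were called by edgeR, with 1 at an unadjusted p under 0.05 and a median of -0.12. They included PRL1, a WD-repeat protein that inhibits the kinases in vitro (-0.20, adjusted p = 0.559), and ABI1, a phosphatase that can dephosphorylate them (-0.20, adjusted p = 0.585).

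Of 11 genes for direct SnRK1 substrates, 10 were tested and 2 were called higher in EtOH_3d than in moc_3d, beside 0.554% of all genes called. Both encode nitrate reductases, enzymes of nitrogen assimilation. NIA1 had 145.6, 129.8, 148.3 and 124.4 CPM in EtOH_3d, against 109, 114.6 and 93.5 CPM in moc_3d, with a log2 fold change of 0.38 ± 0.077 (SE, edgeR adjusted p = 0.00416). NIA2 had 359.5, 345.7, 396.9 and 348.8 CPM in EtOH_3d, against 311.9, 294.6 and 285.1 CPM in moc_3d, with a log2 fold change of 0.29 ± 0.063 (SE, adjusted p = 0.0107). In both genes all EtOH_3d libraries exceeded all analysed moc_3d libraries, as in 4.16% of all genes tested. This list was also chosen with earlier results of these data known. The moc_3d levels of both genes were below those of moc_1d, where NIA2 averaged 378 ± 12 CPM (SD, n = 3). NIA2 averaged 369 CPM in EtOH_1d, 363 CPM in EtOH_3d and 297 CPM in moc_3d. NIA1 averaged 134 CPM in EtOH_1d, 137 CPM in EtOH_3d, 125 CPM in moc_1d and 106 CPM in moc_3d. In both genes moc_3d was thus the lowest group, and the EtOH_3d mean lay close to that of EtOH_1d. Between moc_3d and moc_1d NIA2 fell (log2 fold change -0.35, adjusted p = 0.00135), a call that was lost with all 16 columns (-0.26, adjusted p = 0.124). The NIA1 call was lost without moc_3d replicate 4 (adjusted p = 0.142). The 3 d call of NIA2 was lost without moc_3d replicates 2 or 4 or EtOH_3d replicate 3 (adjusted p = 0.0609, 0.127 and 0.0886), and with the duplicated library kept as moc_3d replicate 3 (0.0582) or in both columns (0.0932).

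TOR complex genes, whose kinase promotes growth and opposes SnRK1, gave 6 tested of 7 and 0 called by edgeR at 3 d, with 0 at an unadjusted p under 0.05. S6K2, a kinase downstream of TOR, had a log2 fold change of -0.63 (adjusted p = 0.598), and RAPTOR2, a TOR partner, one of 0.45 (adjusted p = 0.681). The median of that list was 0.02. Of 3 relatives of the subunits, AT5G39440 (SnRK1.3 in RefSeq) drew 0 to 3 counts per library and was not tested, as were the CBS-domain genes AT1G15330 and AT1G80090.

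Genes known to be induced by KIN10 formed the last list. Of 12 markers all were tested, and 7 rose at 3 d, beside 0.554% of all genes called, with a list median of 0.54 on the log2 scale. These were AT3G15450 (SEN5, 0.46), the raffinose synthase gene DIN10 (0.62), the beta-galactosidase gene BGAL4 (0.71), DRM1 (0.42), DIN1 (0.93), the trehalose phosphate synthase-like TPS8 (0.38) and the branched-chain aminotransferase gene BCAT2 (0.94). At 1 d, 0 of 12 were called by edgeR and 4 had an unadjusted p under 0.05, beside 795 of all 18419 genes, with a list median of 0.24. The list was made with earlier results of these data known, so neither its count nor its median, here or against other lists, is independent evidence of its direction. BCAT2 overlapped between the 3 d groups and kept its call in only 10 of 22 alternative settings, and was not called with limma-voom (adjusted p = 0.159), the replicate block (0.0902) or only the 3 d libraries (0.0925). The call was also lost for DIN1 without moc_3d replicates 1 or 4 (adjusted p = 0.0774 and 0.054). For TPS8 it was lost on leaving out moc_3d replicate 1 (adjusted p = 0.145) or EtOH_3d replicate 3 (0.0504), and with the duplicated library kept as moc_1d replicate 1 (0.0537).

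Averaged over both durations, 7 of the 12 markers were called higher, among them TPS11 (log2 fold change 0.31, edgeR adjusted p = 0.0125), beside 0.516% of all genes, and so was NIA1 (0.24, adjusted p = 0.0115). The averaged call of TPS11 was lost with all 16 columns (adjusted p = 0.12), with the duplicated library kept as moc_1d replicate 1 (0.147) and without moc_1d replicate 2 (0.0884). That of NIA1 was lost without moc_1d replicate 2 (adjusted p = 0.0787) or moc_3d replicate 4 (0.124), and that of DIN1 without moc_3d replicates 1 or 4 (0.0722 and 0.062). Between EtOH_3d and EtOH_1d, where 1.00% of all genes were called, 6 markers were higher by edgeR's test: SEN5 (log2 0.51), TPS8 (0.54), DIN10 (0.49), BGAL4 (0.46), TPS11 (0.41) and DRM1 (0.27). The DRM1 call was lost without EtOH_1d replicates 1 or 4 (adjusted p = 0.0981 and 0.146) or EtOH_3d replicates 2 or 3 (0.0834 and 0.173), and the TPS11 call without EtOH_1d replicate 1 (0.052). Between moc_3d and moc_1d, where 0.842% of all genes were called, 3 of these were also higher: TPS8 (log2 0.54), TPS11 (0.45) and SEN5 (0.31). These 3 moc calls held with the duplicated library kept as moc_3d replicate 3, and were lost where it counted as a moc_1d library. With all 16 columns the adjusted p was 0.104 for TPS8, 0.343 for TPS11 and 0.385 for SEN5, and with that library kept as moc_1d replicate 1 it was 0.0678 for TPS8, 0.302 for TPS11 and 0.443 for SEN5. The TPS11 call was also lost without moc_1d replicates 2 or 4 or moc_3d replicate 4 (adjusted p = 0.13, 0.069 and 0.0691).

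**Figure D5:**
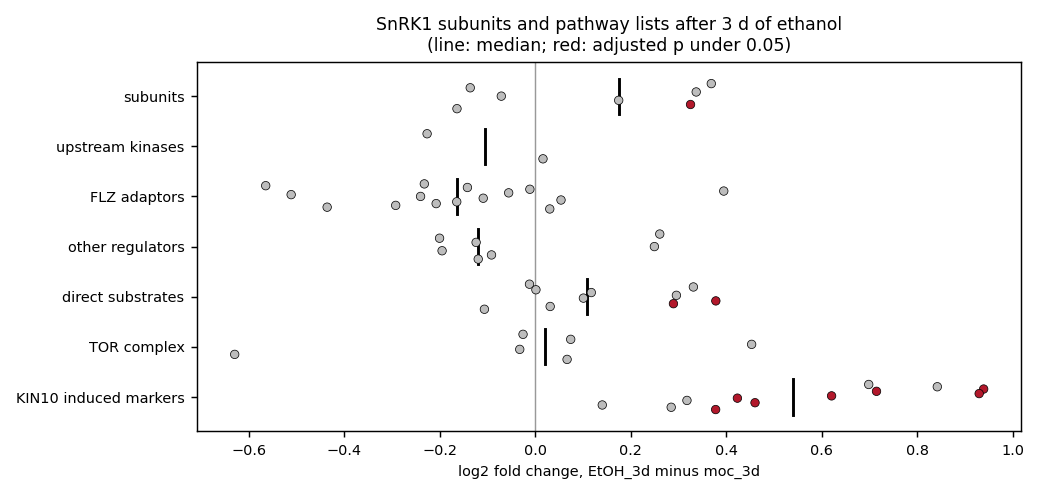
Log2 fold change at 3 d (EtOH_3d minus moc_3d, horizontal axis) of each tested gene of the subunits and of 6 pathway lists, with a vertical line at each list's median and red points for adjusted p under 0.05. The KIN10 induced markers have a median of 0.54, in a list chosen with earlier results known. The 7 subunits have a median of 0.175, with 4 positive and 3 negative values.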

How the data were processed

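Whole-seedling RNA was sequenced by Lasy-Seq, a 3' method, per the labels' protocols. The authors deposited raw read counts per gene, which carry no normalization. Per the submitters' processing notes, the tools were HISAT2, featureCounts, bcl2fastq, Trimmomatic and DESeq2, with build TAIR10. Versions and the strand setting are not given in the sources used here. A second deposited table of the same genes was not used.

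All 120 pairs of columns were compared, and 1 pair was identical. In other pairs within a group the mean chi-square per gene was 2.44 to 4.85. Both identical columns were left out. The main test was that of edgeR 4.0.16, run in R 4.3.3 (filterByExpr, TMM, robust quasi-likelihood fit of 4 groups, two-sided tests, Benjamini-Hochberg adjustment over 18419 genes, threshold 0.05). Alternatives used limma 3.58.1 and DESeq2 1.42.0, other scaling, no filter, a replicate block, other treatments of the duplicated library and leaving out each library. Log2 CPM used a prior count of 2. Shares were compared by exact permutation.

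Gene models and promoters came from TAIR10.1, and no other locus shared 100 nt at 95% identity with the last 500 nt of a subunit (BLAST 2.17.0). The 7 subunits were always named. From each list, members with adjusted p under 0.05 and the 2 with the smallest p at 3 d were named, and for each subunit the gene with the most similar profile. Members and lists were chosen with earlier results of these data known.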

Additional observations from a re-analysis of the deposited data

Results flagged for a closer look

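In EtOH_1d, AKINB1 stood at 75.43 CPM in replicate 2, far from the other 3 libraries of that group at 62.3 to 62.8 CPM. In EtOH_3d, AKINB1 made up 73.81% of beta counts in replicate 3, apart from the other 3 libraries. Both gaps exceed Dixon's 95% critical value for 4 samples (0.829), among 24 groups examined, and chance flags about 1 group in 20. DIN10, one of the markers induced by KIN10, had an ethanol effect that was 0.58 higher on the log2 scale at 3 d than at 1 d (0.5816, edgeR adjusted p = 0.0129). That difference lost its call with limma-voom (adjusted p = 0.0549), with all 16 columns (0.115), with the duplicated library kept as moc_3d replicate 3 (0.0722), and without moc_3d replicate 1 (0.101), moc_1d replicate 4 (0.0516) or EtOH_3d replicate 3 (0.0529).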

How the results depend on the processing

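Of the log2 fold changes of subunits under all alternatives, 872 kept their direction and side of the threshold, 54 changed sign, 10 lost a call and 6 gained one. No change of sign concerned a called value. After removing group means, same-numbered libraries correlated at -0.08 to 0.06, which gives no sign of pairing by replicate number. With so few libraries per group, that cannot show whether they shared a plate or day. With the replicate block, 12 genes were called at 1 d and 0 subunits at 3 d, and log2 changes with a reversed sign were 0.000227 for KIN10 averaged over durations, -0.00411 for KIN10 between EtOH_3d and EtOH_1d, and 0.0369 for KIN11 and -0.0742 for SNF4 between moc_3d and moc_1d.

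With no low-count filter, the genes called numbered 28 at 1 d, 196 at 3 d, 171 averaged, 47 for the difference of effects, 313 between EtOH_3d and EtOH_1d and 283 between moc_3d and moc_1d. In the main analysis they numbered 0, 102, 95, 8, 185 and 155. That setting called 2 subunits at 3 d and 1 averaged, and gave KIN10 -0.000651 between EtOH_3d and EtOH_1d. With all 16 columns, 2 genes were called at 1 d, 66 at 3 d, 0 for the difference of effects and 5 between moc_3d and moc_1d, with 0 subunits at 3 d. Those columns gave 1 d log2 changes of -0.0224 for KIN10, -0.0754 for AKINB3 and 0.0264 for SNF4, and share differences of 4.07 points for AKINB1 (exact permutation p = 0.0098) and -0.931 points for AKINB3. With the duplicated library as moc_1d replicate 1, 2 genes were called at 1 d, 4 for the difference of effects and 19 between moc_3d and moc_1d, and the 1 d values were -0.0222 for KIN10, -0.0756 for AKINB3 and 0.0261 for SNF4. As moc_3d replicate 3 it left 0 subunits called at 3 d, and moc_3d minus moc_1d became 0.00477 for KIN11, 0.126 for AKINB3, 0.0252 for KING1 and -0.0474 for SNF4. Fitting only the compared groups called 16 genes at 1 d and 0 subunits at 3 d. Limma-voom called 1 gene at 1 d, 2 for the difference of effects and 0 subunits at 3 d, and gave 0.00486 for KIN10 averaged, -0.0123 for KIN10 between EtOH_3d and EtOH_1d and -0.0829 for SNF4 between moc_3d and moc_1d. DESeq2 called 16 genes for the difference of effects and 1 subunit averaged. Why these values moved was not tested.

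Leaving out 1 library at a time, genes called ranged from 0 to 5 at 1 d, 43 (without moc_3d replicate 1) to 124 at 3 d, 54 (without moc_1d replicate 2) to 116 averaged, 1 to 23 (without moc_3d replicate 2) for the difference of effects, and 67 (without moc_3d replicate 1) to 158 between moc_3d and moc_1d. Subunits called ranged from 0 to 2 at 3 d and from 0 to 2 averaged. Log2 changes that crossed 0 ranged at 3 d from -0.208 to 0.0463 for KIN10 and -0.461 to 0.0501 for SNF4. At 1 d they ranged from -0.107 to 0.176 for KIN10, -0.00467 to 0.0996 for KIN11, -0.0656 to 0.0326 for AKINB2, -0.00644 to 0.119 for AKINB3 and -0.118 to 0.0389 for SNF4. Averaged over durations the ranges were -0.0891 to 0.0516 for KIN10 and -0.244 to 0.0118 for SNF4. For the difference of effects they were -0.264 to 0.036 for KIN10 and -0.434 to 0.0767 for SNF4. KIN10 ranged from -0.11 to 0.1 between EtOH_3d and EtOH_1d. Between moc_3d and moc_1d the ranges were -0.0319 to 0.268 for KIN10, -0.0436 to 0.0347 for AKINB1, -0.0651 to 0.023 for AKINB2, -0.126 to 0.0603 for AKINB3 and -0.206 to 0.305 for SNF4. The AKINB1 share difference between EtOH and moc ranged from 2.1 to 3.57 points. For 3 d minus 1 d, shares ranged from -2.53 to -1.49 points for AKINB2, -0.0929 to 0.767 for AKINB3, -0.871 to 2.22 for KIN10 and -0.94 to 0.374 for SNF4. SNF4 had the lowest counts of the 7 subunits, from 20 to 74 per library, which limits its precision.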
